A study of Mus musculus with 48 samples.

Results

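The nuclear-encoded subunits of the respiratory chain and ATP synthase were examined in the hippocampus of young adult mice whose dams had drunk lead (Pb), manganese (Mn) or both. Members were all genes whose mouse symbol names a subunit of complexes I to V (the Nduf a, b, c, s and v series, the 4 Sdh genes, the Uqcr genes, the nuclear Cox4 to Cox8a genes and the Atp5 genes) and whose mean over all libraries was at least 1 CPM (a gene's count scaled to a common library total). Of the 57126 genes in the table, 95 had such a symbol and 82 of these reached that mean: 38 of complex I, 4 of complex II, 8 of complex III, 15 of complex IV and 17 of complex V. Just inside the limit were Cox6a2 (1.62 CPM), Cox7a1 (1.67 CPM) and Cox4i2 (1.79 CPM), and just outside it were Cox7b2 (0.612 CPM), Cox6c2 (0.355 CPM) and the pseudogene Atp5l2-ps (0.294 CPM). All 82 members passed the filter on low counts, and 77 of them averaged at least 10 CPM. Cox7a2l and Atp5s carry subunit-like symbols but are not structural subunits, and Ndufa4, counted here with complex I by its symbol, is now known as a subunit of complex IV.

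The 48 libraries came from the hippocampi of CD-1 mice, an outbred stock, aged 2 months, with 6 males and 6 females in each of 4 exposures. Dams drank water with Pb at 100 ppm, Mn at 2 g/L, both metals at those concentrations (Pb+Mn) or neither (control), beginning 2 weeks before mating and ending at weaning on postnatal day 21, which made 8 weeks in all. Pups therefore met the metals through their dams, and the labels do not say which animals were littermates, so every p-value below rests on variation among single animals, litters unknown. By its title the study contrasts Mn with concurrent Pb in male social processing, and the comparisons below ask how the respiratory chain transcripts differ with each exposure within a sex, between Pb+Mn and each single metal, and between the sexes.

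The respiratory chain passes electrons from NADH and succinate to oxygen and uses the energy to pump protons across the inner mitochondrial membrane. Complex I oxidizes NADH, complex II oxidizes succinate, complex III passes electrons to cytochrome c, complex IV hands them to oxygen, and complex V, the ATP synthase, lets protons back to make ATP. Each complex except complex II combines subunits encoded in the mitochondrial genome with the nuclear-encoded subunits described here, and in brain most of the ATP they make pays for ion pumping and synaptic transmission.

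Total counts ranged from 6.27 M to 27.6 M per library (median 15.1 M). The listed markers of hippocampal cells were all counted in every library (6 of 6 for dentate granule cells, 5 of 5 for CA1 pyramidal cells and 5 of 6 for CA3 and CA2 cells, where 1 symbol was not found). Libraries of bulk tissue cannot tell fewer cells of a type apart from less RNA per cell. Male Pb replicate 6 and female Pb replicate 2 stood apart in the members themselves, and the members followed the relation between expression and transcript length. Both facts touch every comparison and are described after the levels.

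Complex V held the largest part of the members' reads and complex II the smallest. In male controls the members together took 1.17 ± 0.147% of all counts (SD, n = 6), of which complex I had 0.324 ± 0.0452%, complex II 0.0728 ± 0.00531%, complex III 0.110 ± 0.0164%, complex IV 0.253 ± 0.0437% and complex V 0.407 ± 0.0431%. The 13 mitochondrially encoded subunits took 3.90 ± 0.294% in the same libraries. Their counts were very uneven, from 6014 ± 403.5 CPM for mt-Nd1 to 0.511 ± 0.216 CPM for mt-Nd4l. That share therefore does not weigh the 13 genes alike. The members' share was 1.46 ± 0.481% in Pb males and 1.07 ± 0.0856% in Pb+Mn males, and the highest shares of all 48 libraries were in male Pb 6 (2.37%) and female Pb 2 (2.25%).

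Levels between genes were compared as CPM per kilobase of transcript, over all 48 libraries. Cox8a, a small accessory subunit of complex IV, had the highest level of all members (784 CPM per kb), and Cox4i1, a subunit that regulates the oxidase, followed in that complex (732 CPM per kb). Atp5b, the catalytic beta subunit of the ATP synthase, led complex V (597 CPM per kb), Ndufa4 led the genes counted with complex I (558 CPM per kb), Uqcrh, the hinge protein, led complex III (404 CPM per kb), and Sdha, the flavoprotein that binds succinate, led complex II (137 CPM per kb). The lowest level in each complex was that of Ndufa4l2 (2.56 CPM per kb), the membrane anchor Sdhc (61.7 CPM per kb), the Rieske iron-sulfur protein Uqcrfs1 (82 CPM per kb), the muscle-type isoform Cox6a2 (2.38 CPM per kb) and Atp5s (7.5 CPM per kb). Within the gene pairs that code for tissue isoforms, the widely used form dominated in every library. Per kilobase, Cox4i2 was at a median of 0.338% of Cox4i1 (0.148% to 0.548% over 48 libraries), Cox6a2 at 0.300% of Cox6a1 (0.0421% to 1.24%), Cox6b2 at 1.23% of Cox6b1 (0.452% to 3.31%), Cox7a1 at 1.59% of Cox7a2 (0.620% to 2.77%) and Ndufa4l2 at 0.517% of Ndufa4 (0.159% to 0.773%).

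**Figure D1:**
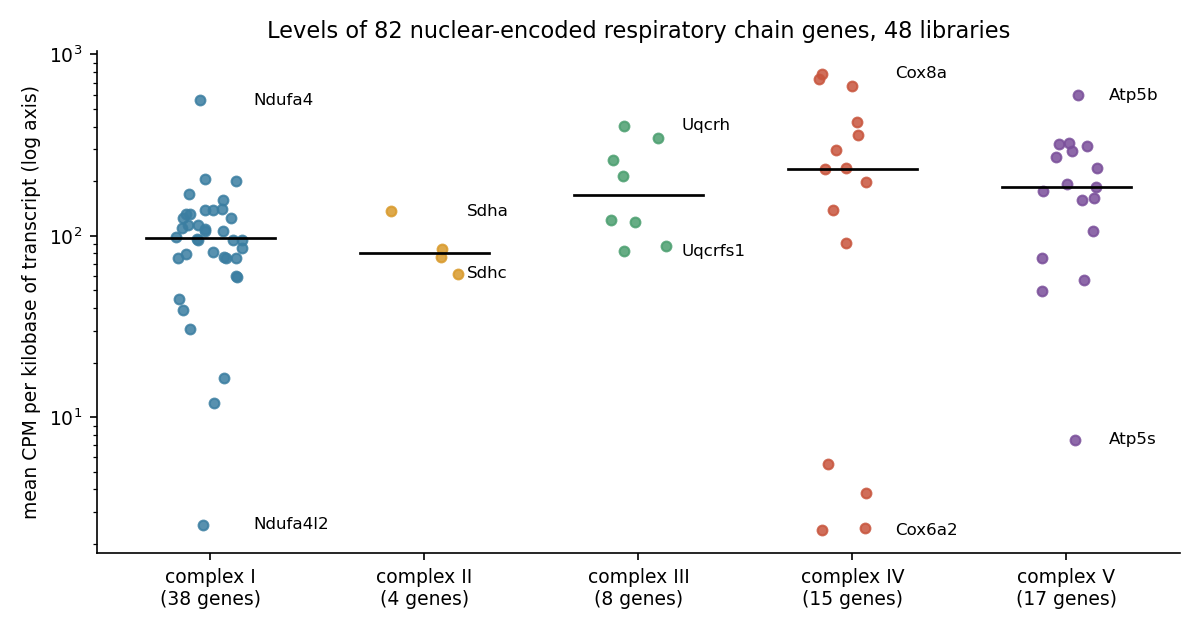
Level of each of the 82 members as CPM per kilobase of transcript, averaged over 48 libraries, on a log axis and grouped by complex, with a line at each complex's median. Cox8a (784) is the highest point, and the lowest points of complexes I and IV are tissue isoforms, among them Ndufa4l2 (2.56) and Cox6a2 (2.38).

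For subunit c, which forms the rotating ring of the ATP synthase, the levels of the genes were nearer to each other than in those pairs. The 3 genes Atp5g1, Atp5g2 and Atp5g3 code for different targeting sequences and the same mature subunit. Per kilobase, Atp5g1 was at a median of 15.9% of Atp5g3 (12% to 19.1%) and Atp5g2 at 24.1% (20.9% to 27.9%), so Atp5g3 led in all 48 libraries. These shares depend on the lengths used, 2675.5 bases for Atp5g1, 586 for Atp5g2 and 718.5 for Atp5g3. Without division by length the means were 133, 44.2 and 225 CPM, so the order of Atp5g1 and Atp5g2 was the reverse. The last 120 coding bases of each gene are printed because reads of this shared part decide whether the 3 genes can be told apart. Capitals mark the positions at which the 3 sequences are not identical, 31 of 120, taken from GENCODE M21 transcripts.
Atp5g1, chromosome 11: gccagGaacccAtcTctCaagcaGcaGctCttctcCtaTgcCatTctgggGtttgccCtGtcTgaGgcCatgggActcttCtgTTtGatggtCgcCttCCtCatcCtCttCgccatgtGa
Atp5g2, chromosome 15: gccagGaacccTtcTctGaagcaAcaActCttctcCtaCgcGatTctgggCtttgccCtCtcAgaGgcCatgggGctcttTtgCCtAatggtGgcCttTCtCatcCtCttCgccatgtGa
Atp5g3, chromosome 2: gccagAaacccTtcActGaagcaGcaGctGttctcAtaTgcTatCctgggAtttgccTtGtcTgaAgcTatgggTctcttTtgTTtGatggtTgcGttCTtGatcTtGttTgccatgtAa
Over the whole stretch that codes for the mature subunit, Atp5g1 and Atp5g2 differed at 34 positions (85.1% identical), Atp5g1 and Atp5g3 at 46 (79.8%) and Atp5g2 and Atp5g3 at 49 (78.5%). Of all members, 51 shared no run of 100 bases, the length of a read, with the transcripts of another gene. The other 31 shared at least 1 such run, 11 of them over 10% or more of their own runs and none over 50%. Atp5g2 had the highest share (34.7%), with Gm10175 and Gm10231 and not with Atp5g1 or Atp5g3. It was followed by Ndufb6 (24.0%, shared with Smim27), Ndufa13 (24.0%, with Tssk6) and Atp5o (21.4%). The counts of these genes are uncertain where reads could go to either gene.

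Each library's members were summarised as the mean of their log2 CPM, each gene centred on its mean over the 48 libraries. Male Pb 6 had a value of 1.19 and female Pb 2 of 1.05, while no other library exceeded 0.44. Next came male Pb 4 (0.44) and female control 1 (0.39). The other values ran from -0.40 in female Pb 5 to 0.28 in a female Mn library. Group means were 0.35 ± 0.45 in male Pb, -0.12 ± 0.12 in male Pb+Mn and -0.02 ± 0.20 in male control (SD, n = 6), and these groups overlapped. The high values of the 2 outer libraries spanned all complexes. Male Pb 6 stood at 1.19 for complex I, 0.76 for complex II, 1.24 for complex III, 1.32 for complex IV and 1.14 for complex V, and female Pb 2 at 1.06, 0.53, 1.10, 1.26 and 0.96. Male Pb 6 was the highest of 48 libraries for 60 of the 82 members and female Pb 2 for 10. In male Pb 6 a member lay at a median of 1.32 (log2) above its median over 48 libraries, and the range ran from -0.16 for Sdha to 3.18 for Cox7b, a small accessory subunit of complex IV.

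**Figure D2:**
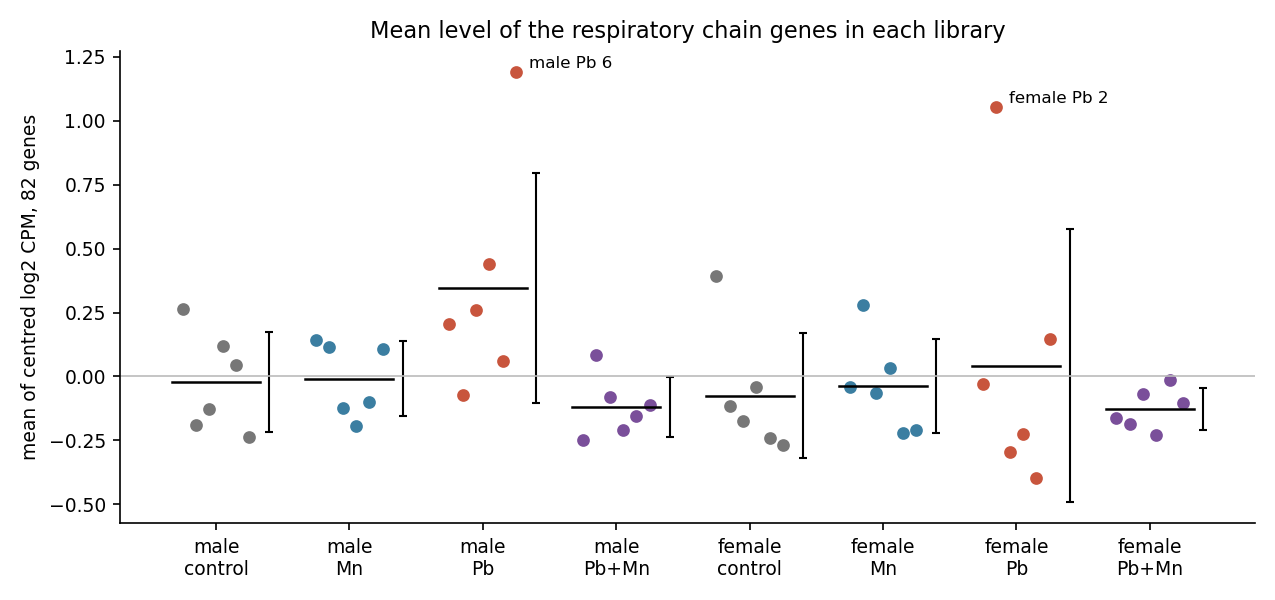
Mean centred log2 CPM of the 82 members in each of 48 libraries, by group, 1 point per library, with a line at the group mean and a bar of 1 SD on either side of it (n = 6). Male Pb 6 (1.19) and female Pb 2 (1.05) are far above all other points, and 5 of 6 male Pb+Mn libraries lie below 0.

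The members varied together, and a member's complex made little difference to how closely it followed the others. Across the 48 libraries the median Pearson correlation of log2 CPM between members was 0.852 within a complex (978 pairs) and 0.830 between complexes (2343 pairs). Without male Pb 6 and female Pb 2 these medians were 0.712 and 0.693 over 46 libraries. The points share their libraries, depth and scaling, and the correlations are given as a description. The members that followed the mean of the others most closely were small accessory subunits of complexes III and IV, Uqcrq (r = 0.986), Cox6b1 (0.986) and Uqcr10 (0.984). Those that followed it least were large subunits at the catalytic core or long transcripts: Sdha (r = -0.508), Ndufs1 (-0.447), Atp5a1 (-0.282) and Ndufa10 (0.126). These genes were picked after their values were seen. Sdha also had the smallest coefficient of variation over 48 libraries (6.60%) and Cox7b the largest (95.9%).

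What these members share beyond their symbols is short transcripts. Their median transcript length was 744 bases (322 to 2900), against 2626 bases over the 16091 genes tested that had a length, and 56 of 82 (68.3%) were under 1000 bases against 10.9% of genes. Libraries differed in how strongly expression depended on length. For each library a length trend was computed over 16009 genes that are not members, as the slope with which centred log2 CPM changed per log2 base of transcript. It was -0.36 in male Pb 6, -0.34 in female Pb 2, -0.20 in female control 1 and -0.15 in male Pb 4, and lay between -0.09 and 0.14 in the other libraries. A negative slope means that short transcripts were relatively abundant. The members' mean followed that slope across the 48 libraries with r = -0.984 (Spearman's rho = -0.974), and r was -0.969 without the 2 libraries farthest out. Both measures come from the same libraries and scaling, so these correlations are a description. Whether the length trend, the tissue or the exposure sets the members' level in these libraries was not tested.

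**Figure D3:**
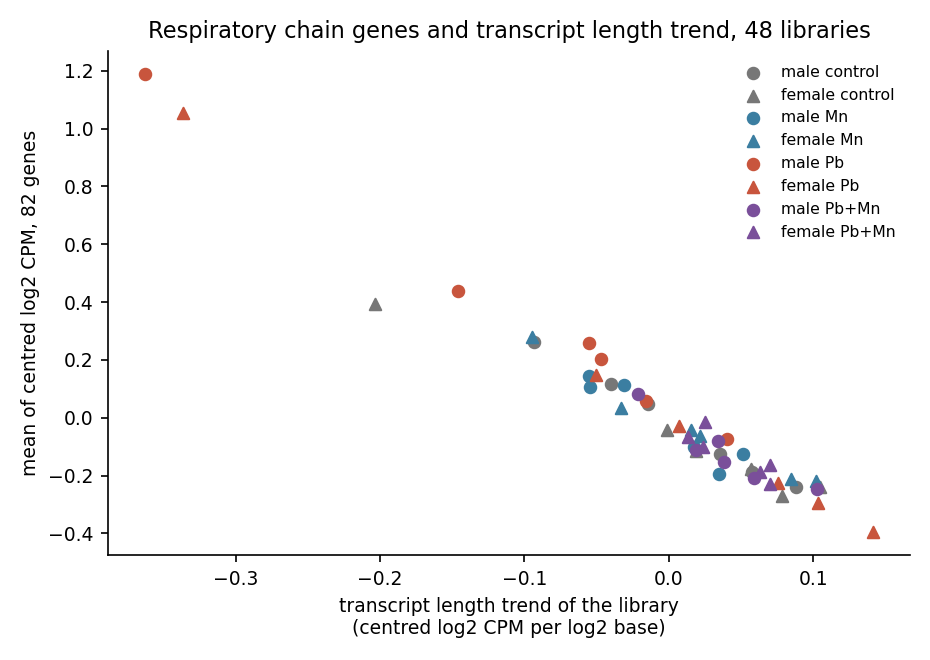
Mean centred log2 CPM of the 82 members against the transcript length trend of genes outside the group, 1 point per library, coloured by group. The 48 points fall along 1 line (r = -0.984) that ends at male Pb 6 (-0.36, 1.19) and female Pb 2 (-0.34, 1.05).

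The members' promoters were read for 4 short motifs bound by regulators of these genes. Whether the motifs bear on the variation between libraries was not tested. NRF1 and GABPA (also called NRF2) are transcription factors known for driving respiratory chain genes, YY1 is another, and SP1 binds many promoters rich in G and C. RefSeq promoter windows (GRCm38.p6, 250 bases before to 50 after the start of transcription) were found for 67 of 82 members, in 72 windows. On either strand, GCGCATGC (NRF1) was in a window of 10 of 67 members (14.9%) against 3.05% of the 27025 genes with a window, AAGATGGCG (YY1) in 7 (10.4% against 1.64%), CCGGAAGT (GABPA) in 5 (7.46% against 4.31%) and GGGCGG (SP1) in 27 (40.3% against 38.2%), and 26 members held none of the 4. Of all 32851 windows, 2.71%, 1.40%, 3.89% and 35.7% held the motifs in that order. The 27025 genes include many too low to be tested here, whereas all members were tested. Members and background therefore differ in expression, and a background of similar expression was not used. NRF1 alone was matched in every complex: in 3 of 33 windowed genes of complex I, 1 of 3 of complex II, 2 of 5 of complex III, 1 of 11 of complex IV and 3 of 15 of complex V. YY1 was matched in 5 of complex I and 2 of complex V, and in 0 of complexes II, III and IV. GABPA had 0 matches in complex II, and SP1 had 0 in complex III.

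The windows below show a matched promoter for each complex and, last, those of Sdha and Cox7b, which held none of the 4. Sdha had the lowest r with the other members, and Cox7b varied most. They were chosen after the search. Each runs from 100 bases before to 30 bases after the start, on the gene's strand, with matched bases in capitals.
Ndufa11 (chr17:56717662-56717791, plus strand): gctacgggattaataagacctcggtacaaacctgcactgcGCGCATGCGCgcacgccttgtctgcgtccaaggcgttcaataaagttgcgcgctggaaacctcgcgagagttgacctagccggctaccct
Sdhb (chr4:140961171-140961300, plus strand): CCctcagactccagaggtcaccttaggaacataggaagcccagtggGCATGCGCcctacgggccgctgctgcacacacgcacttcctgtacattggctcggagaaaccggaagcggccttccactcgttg
Uqcr11 (chr10:80406792-80406921, minus strand): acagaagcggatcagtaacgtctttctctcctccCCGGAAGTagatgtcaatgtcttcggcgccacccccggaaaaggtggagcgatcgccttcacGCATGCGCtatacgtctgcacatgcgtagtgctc
Cox8a (chr19:7217587-7217716, minus strand): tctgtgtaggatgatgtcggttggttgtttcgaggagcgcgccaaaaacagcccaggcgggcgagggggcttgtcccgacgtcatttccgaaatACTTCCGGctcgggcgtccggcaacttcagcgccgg
Atp5h (chr11:115419890-115420019, minus strand): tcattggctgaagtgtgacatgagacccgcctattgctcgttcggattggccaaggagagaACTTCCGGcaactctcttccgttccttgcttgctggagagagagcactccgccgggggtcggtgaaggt
Sdha (chr13:74350211-74350340, minus strand): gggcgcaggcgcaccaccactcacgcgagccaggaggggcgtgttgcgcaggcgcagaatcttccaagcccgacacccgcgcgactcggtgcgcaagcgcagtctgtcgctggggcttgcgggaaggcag
Cox7b (chrX:106015600-106015729, plus strand): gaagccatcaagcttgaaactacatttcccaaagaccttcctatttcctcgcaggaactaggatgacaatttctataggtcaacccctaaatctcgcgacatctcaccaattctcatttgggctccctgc
In Ndufa11 the NRF1 motif was read on both strands, in 2 overlapping matches that begin 60 and 58 bases before the start. In Sdhb it was read on the reverse strand from base -54, and the first 2 capitals are the end of an SP1 match that begins before the printed stretch. Uqcr11 had a GABPA match from base -66 and an NRF1 match from base -4, Cox8a a reverse GABPA match from base -6 (and a second beyond the printed stretch, from base 31) and Atp5h a reverse GABPA match from base -39. A match is a run of letters, not a measured binding site, and the absence of one says only that these letters are not in the window.

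No member passed the adjusted threshold in edgeR's quasi-likelihood test in any of the 16 comparisons, and in the exposure comparisons the share of all 16360 genes that passed was 0% as well. The comparison of male Pb+Mn with male Pb came nearest to the threshold and the comparison of male Pb with male control was next, and both are described with unadjusted counts beside those of all genes. The limma voom fit also called 0 members in all 16 comparisons, while DESeq2 and limma voom with library weights called members in male Pb+Mn against male Pb alone. In male Pb against control DESeq2 gave most members no adjusted p, so those could not be called by it.

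Males exposed to Pb had higher mean levels of most subunit transcripts than control males. Of the 82 members, 77 had a positive log2 fold change, with a median of 0.46, against 8316 of 16360 genes and a median of 0.00 over all genes tested. At an unadjusted p under 0.05, 55 members were higher and 0 lower, where 8.28% of all genes were higher. The smallest adjusted p among members was 0.34. Without male Pb 6 the median was 0.22, 75 members were positive and 2 were higher at an unadjusted p under 0.05, where 2.86% of all genes were. No member's male Pb values lay wholly above its control values, as was the case for 0.0917% of all genes. The difference was spread over the complexes: 29 of 38 members of complex I were higher at an unadjusted p under 0.05 (median 0.46), 2 of 4 of complex II (0.28), 5 of 8 of complex III (0.50), 11 of 15 of complex IV (0.54) and 8 of 17 of complex V (0.32).

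Within complex I the accessory subunits had larger values than the core subunits, a difference that was not tested. Of 31 accessory subunits 28 were higher at an unadjusted p under 0.05 (median 0.50), against 1 of the 7 core subunits (median 0.09), which carry the electron path. Counted by symbol, the accessory subunits here and below include Ndufa4 and its isoform Ndufa4l2. Ndufb8, an accessory subunit of the membrane arm, had the smallest p of all members. It ran from 17.3 to 23.1 CPM in male controls (median 20.4) and from 21.3 to 81.8 CPM in male Pb (median 29.8). All 6 male Pb libraries were above the control mean, the groups overlapped, and the log2 fold change was 0.86 ± 0.27 (SE, edgeR adjusted p = 0.34). Ndufs6, a zinc-binding subunit of the peripheral arm, had 0.69 ± 0.23, and Ndufb1-ps, the mouse gene of the small subunit B1, had 0.87 ± 0.30. Among core subunits, the iron-sulfur protein Ndufv2 had 0.49 ± 0.20 and another, Ndufs8, 0.34 ± 0.17, whereas Ndufs7 had 0.15 ± 0.14, the NADH-binding Ndufv1 0.06 ± 0.11 and Ndufs3 0.01 ± 0.12. Ndufs1, the largest subunit of the electron path, had -0.07 ± 0.07, with 108 to 124 CPM in male Pb (median 112) and 112 to 127 CPM in controls (median 120).

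In complex II the flavoprotein had a value near 0 and the other 3 subunits had positive ones. Sdha ran from 385 to 424 CPM in male controls (median 398) and from 356 to 432 CPM in male Pb (median 402), a log2 fold change of -0.02 ± 0.07 with a 95% interval of -0.16 to 0.11. Male Pb 6, the highest library for the other 3 subunits within this group, was the lowest of the 6 for Sdha. The membrane anchors Sdhc and Sdhd had 0.28 ± 0.12 and 0.42 ± 0.21, and the iron-sulfur subunit Sdhb had 0.29 ± 0.13. In complex III the 5 small accessory subunits were all higher at an unadjusted p under 0.05 (median 0.67), among them Uqcrh (0.82 ± 0.29), which had 130 to 216 CPM in controls (median 160) and 153 to 697 CPM in male Pb (median 241). The 2 core proteins and the Rieske protein had values near 0, with Uqcrc1 at 0.06 ± 0.10, Uqcrc2 at 0.15 ± 0.12 and Uqcrfs1 at 0.08 ± 0.09, and 0 of these 3 were higher at that threshold.

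Complex IV had the member with the largest difference. Cox7b ran from 104 to 258 CPM in male controls (median 169) and from 109 to 1252 CPM in male Pb (median 244). Male Pb 6 held the 1252 CPM, the next library had 530 CPM, and the lowest male Pb library lay within the control range. The log2 fold change was 1.31 ± 0.42 (edgeR adjusted p = 0.34), and 0.58 without male Pb 6. Cox4i1 had 425 to 620 CPM in controls (median 468) and 499 to 1567 CPM in male Pb (median 745), with 0.69 ± 0.24. Cox8a had 347 to 506 CPM in controls (median 371) and 423 to 881 CPM in male Pb (median 548), above the control mean in 6 of 6 libraries, with 0.54 ± 0.17. Cox6c, another small subunit, had 0.80 ± 0.25, Cox7a2 0.74 ± 0.25, Cox6a1 0.50 ± 0.18, and the matrix-side subunits Cox5a and Cox5b had 0.23 ± 0.14 and 0.46 ± 0.19. The muscle-type isoform Cox6a2 went the other way at -0.58 ± 0.45 with few counts (1.79 ± 0.926 against 2.43 ± 2.12 CPM).

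In complex V, of the 4 subunits of the peripheral stalk, which holds the catalytic head still, 3 were higher at an unadjusted p under 0.05 (median 0.50), against 1 of 5 in the head (median 0.15) and 0 of 3 in the ring (median 0.21). The differences between these roles were not tested. Atp5h, the stalk's subunit d, had 180 to 220 CPM in controls (median 195) and 197 to 475 CPM in male Pb (median 251), with 0.49 ± 0.18. Atp5b had 1039 to 1306 CPM in controls (median 1151) and 1067 to 1301 CPM in male Pb (median 1211), with 0.03 ± 0.08 and almost the same range in both groups. The alpha subunit Atp5a1 had -0.06 ± 0.09 and the gamma shaft Atp5c1 0.31 ± 0.16. Within the head, the short transcript of Atp5e, the epsilon subunit, was the 1 gene at an unadjusted p under 0.05 (0.91 ± 0.35). Atp5mpl, a small membrane subunit, had 0.83 ± 0.27 and was above the control mean in 6 of 6 male Pb libraries.

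**Figure D4:**
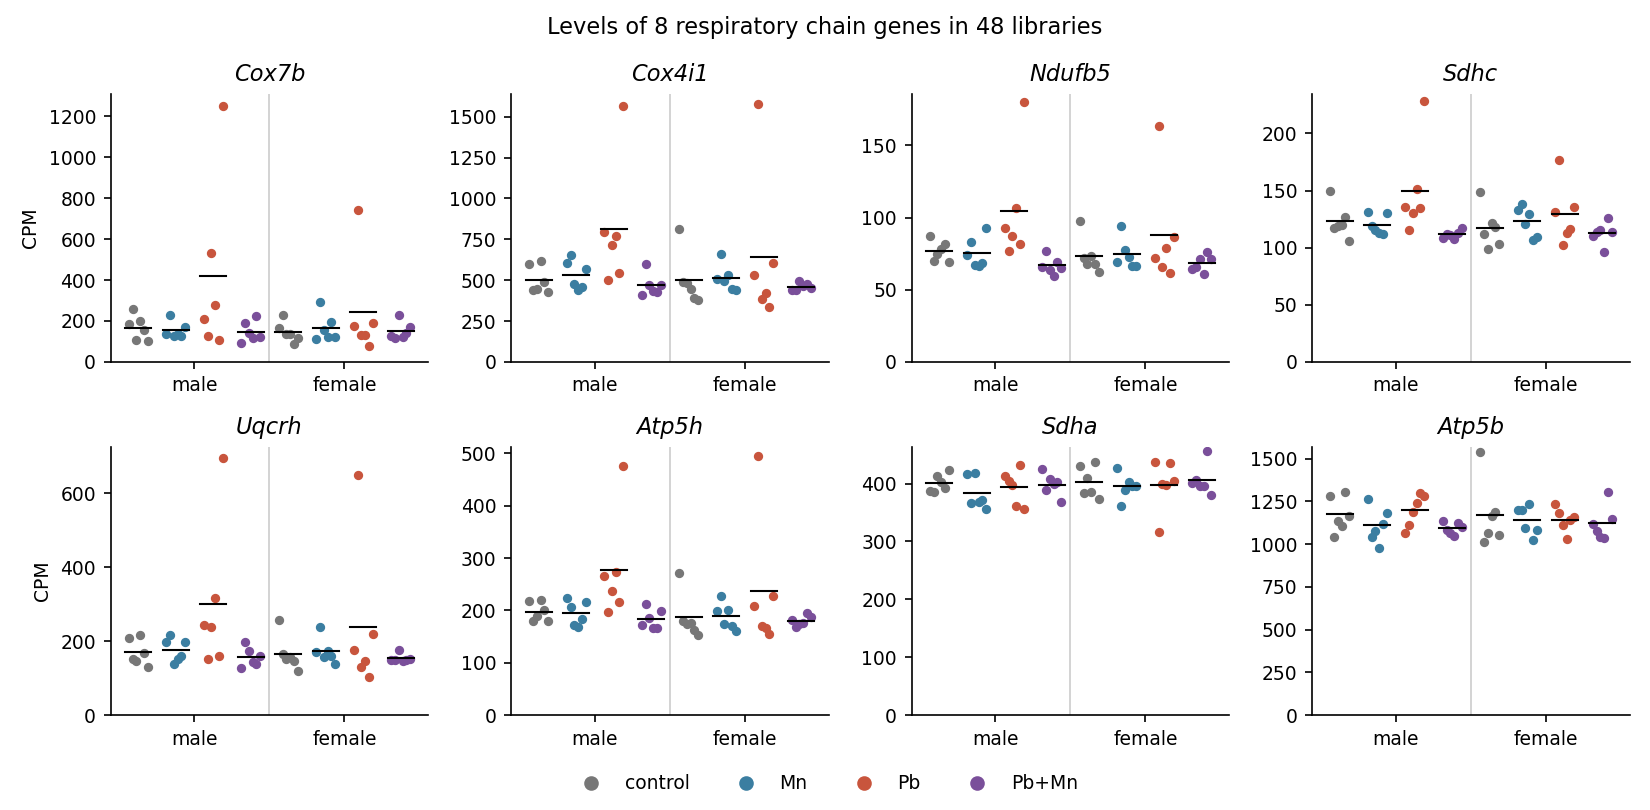
CPM of 8 members in all 48 libraries, by group, 1 point per library with the group mean: Cox7b, Cox4i1, Ndufb5, Sdhc, Uqcrh and Atp5h above Sdha and Atp5b. In the first 6 genes male Pb 6 and female Pb 2 are the highest points (Cox7b 1252 and 744 CPM), whereas Sdha and Atp5b show no such points.

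Males exposed to both metals had lower mean levels than males exposed to Pb alone for nearly all members. Of 82 members 79 were negative, with a median log2 fold change of -0.58 against -0.01 over all genes. At an unadjusted p under 0.05, 69 members were lower and 0 higher, where 15% of all genes were lower. The smallest adjusted p was 0.092. DESeq2 called 15 members lower at an adjusted p under 0.05 (1.16% of all genes), 6 of complex I, 1 of II, 0 of III, 5 of IV and 3 of V, and limma voom with library weights called 27 (1.86% of all genes), 14 of complex I, 0 of II, 1 of III, 7 of IV and 5 of V. The edgeR count turned on single male Pb libraries: it was 61 without male Pb 2 (7.55% of all genes lower) and 54 without male Pb 5 (7.37%), the libraries with the lowest members' mean in that group (-0.07 and 0.06). Without male Pb 6 it was 0, with 26 members lower at an unadjusted p under 0.05 (4.97% of all genes), 81 of 82 negative and a median of -0.34. This comparison shares the male Pb libraries with the one before it, so the 2 sets of values are not independent.

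Ndufb5, an accessory subunit of the membrane arm of complex I, had the smallest p. It ran from 77.0 to 180 CPM in male Pb (median 90.3) and from 59.6 to 76.9 CPM in male Pb+Mn (median 65.6). All Pb+Mn libraries lay below all Pb libraries, though the gap was small, and the log2 fold change was -0.64 ± 0.17 (edgeR adjusted p = 0.092; DESeq2 adjusted p = 0.046). Control males had 69.3 to 87.1 CPM of it (median 76.6), a median between those of the 2 exposed groups. Beside Ndufb5, the groups did not overlap for Ndufc2 (53.8 ± 2.65 against 85.5 ± 36.6 CPM, -0.67 ± 0.18), Uqcrc2 (151 ± 6.05 against 188 ± 40.4 CPM, -0.31 ± 0.12) and Ndufv3, a small peripheral-arm subunit (57.3 ± 2.10 against 73.7 ± 17.3 CPM, -0.37 ± 0.15). These 4 of 82 members stand beside 0.471% of all genes. The SDs of all 4 were smaller in Pb+Mn males than in Pb males. They were picked by this overlap, after their values were seen, beside those named for their p.

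By complex, 32 of 38 members of complex I were lower at an unadjusted p under 0.05 (median -0.58), 3 of 4 of complex II (-0.39), 7 of 8 of complex III (-0.61), 13 of 15 of complex IV (-0.60) and 14 of 17 of complex V (-0.60). In complex I, 29 of 31 accessory subunits (median -0.63) and 3 of 7 core subunits (median -0.21) were lower at that threshold. In complex III, it was 5 of 5 accessory subunits (-0.74) and 2 of 3 of the core and Rieske proteins (-0.26), and in complex V 4 of 4 stalk subunits (-0.63), 3 of 3 ring genes (-0.28) and 2 of 5 head subunits (-0.14). Sdhc ran from 108 to 117 CPM in Pb+Mn males (median 112), against 115 to 228.3 CPM in Pb males (median 135), with -0.42 ± 0.12. Cox7b had 91.4 to 225 CPM (median 132) in Pb+Mn males, and its log2 fold change was -1.49 ± 0.43. Cox6c had -0.92 ± 0.25, Cox7a2 -0.87 ± 0.25, Atp5mpl -0.96 ± 0.27, Ndufs6 -0.79 ± 0.23, the stalk's Atp5o -0.76 ± 0.22, and the rarely read isoform Cox7a1 -1.25 ± 0.35 (1.26 ± 0.160 against 2.92 ± 1.85 CPM). The 3 members with positive values were Ndufa4l2 (0.14 ± 0.18), Sdha (0.02 ± 0.07) and Atp5a1 (0.01 ± 0.09).

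The interaction asks whether Mn shifted the members differently with and without Pb. In males the log2 interaction had a median of -0.60 over the members, with 76 of 82 negative and 48 lower at an unadjusted p under 0.05, where 8.18% of all genes were lower, and 0 members passed edgeR's adjusted threshold (smallest adjusted p = 0.35). Cox6c had the smallest p (-1.09 ± 0.35), followed by Ndufb8 (-1.13 ± 0.38) and Atp5mpl (-1.04 ± 0.38). Without male Pb 6 the median was -0.36 and 2 members were lower at that threshold (2.89% of all genes). In females the median was -0.32 and 0 members reached an unadjusted p under 0.05, and without female Pb 2 the median was -0.02.

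The size of these differences followed transcript length among the members as it did among other genes. In male Pb against control, the median log2 fold change was 0.68 over the 13 members with transcripts under 500 bases, 0.53 over the 23 of 500 to under 700 bases, 0.43 over the 20 of 700 to under 1000 bases and 0.18 over the 26 of 1000 bases or more. Other genes in the same length classes had medians of 0.45, 0.40, 0.28 and -0.02. In male Pb+Mn against male Pb the members' medians were -0.78, -0.64, -0.51 and -0.31, and those of other genes -0.49, -0.47, -0.37 and 0.02. In each class the members' median was farther from 0 than that of the other genes. The longest class is open-ended and no member exceeds 2900 bases, so lengths are not matched within it. Across the 82 members, Spearman's rho of the fold change with length was -0.610 for male Pb against control and 0.549 for Pb+Mn against Pb, and across the 16009 other genes it was -0.421 and 0.493. These are correlations across genes, which are not independent replicates.

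**Figure D5:**
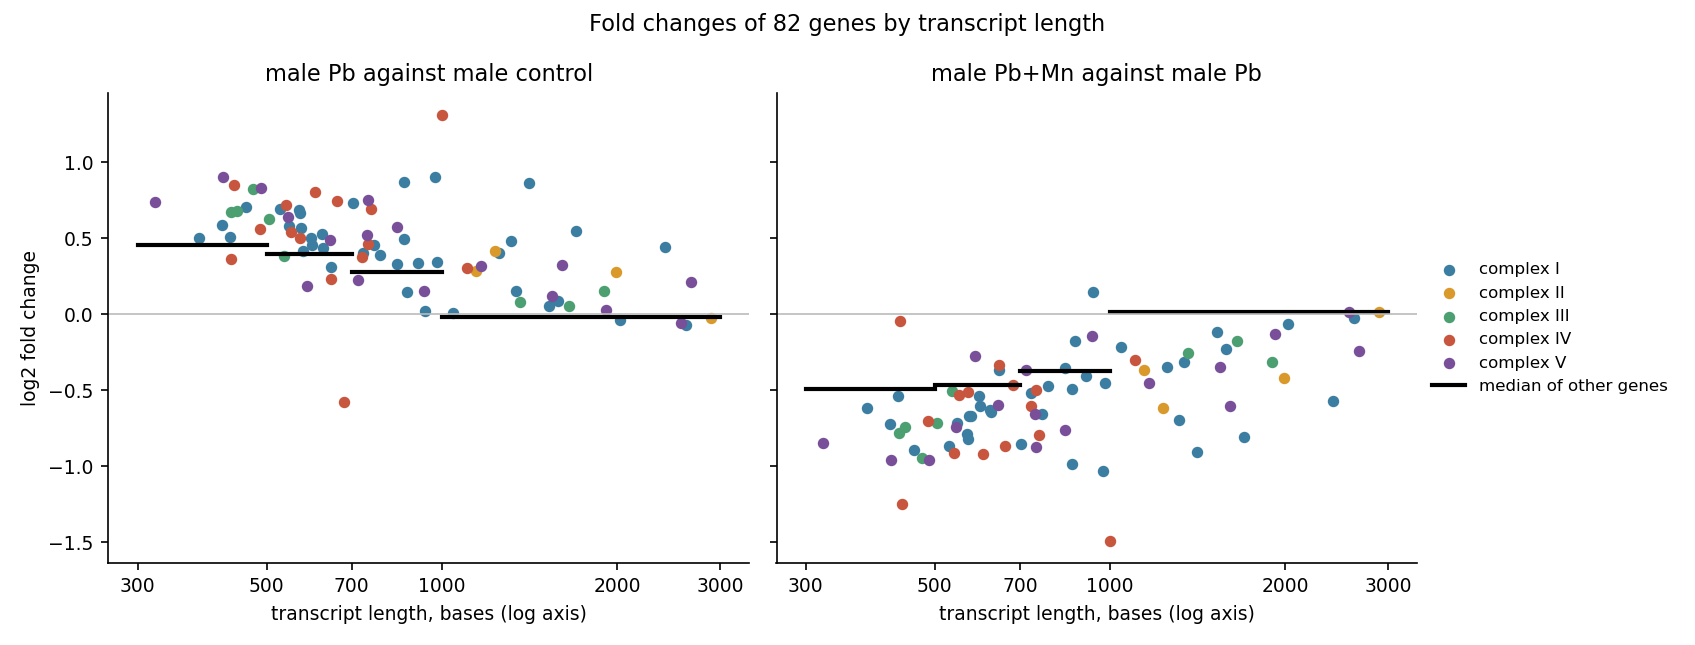
Log2 fold change of each member against transcript length (log axis) for male Pb against control and male Pb+Mn against male Pb, coloured by complex, with black lines at the median of other genes in 4 length classes, the longest class open-ended. Members under 500 bases have medians of 0.68 and -0.78, beside 0.45 and -0.49 for other genes of that length.

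With each library's length trend as a covariate in the edgeR fit, the members' medians were near 0. In male Pb against control the members' median was 0.07, with 11 members higher and 1 lower at an unadjusted p under 0.05 (3.07% of all genes higher). The 11 were led by Cox8a (0.22 ± 0.06, edgeR adjusted p = 0.85), Cox4i1 (0.19 ± 0.07) and Ndufb8 (0.27 ± 0.11), and the others were Ndufs6, Uqcr11, Ndufa8, Cox6a1, Cox6b1, Cox6c, Atp5mpl and Cox7a2. The 1 lower member was Cox6a2 (-0.95 ± 0.45). In male Pb+Mn against Pb the median was -0.07, with 7 members lower (3.19% of all genes), led by Ndufb5 (-0.21 ± 0.06, edgeR adjusted p = 0.89), Cox6b1 (-0.14 ± 0.05) and Ndufv2 (-0.12 ± 0.05). The male Pb libraries themselves have the lower length trends, so the covariate and the exposure overlap and cannot be told apart fully in this fit.

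Other gene lists set the members' values in context, described by counts and medians at an unadjusted p under 0.05. Beside these counts, 8.28% of all genes were higher in male Pb against control and 15% were lower in male Pb+Mn against Pb. The shares of all genes in the opposite directions are not reported here. In male Pb against control, 12 of the 13 mitochondrially encoded subunits were higher (median 0.51, for example mt-Nd5 0.49 ± 0.17 and mt-Nd1 0.51 ± 0.19). Among these 12, mt-Nd4l had few counts (0.973 ± 0.347 against 0.511 ± 0.216 CPM). Higher as well were 41 of 44 cytosolic ribosomal proteins (median 0.62), another set of short transcripts. Of 18 tested assembly factors of complex I, 4 were higher (median 0.17, led by Ndufaf8, 0.65 ± 0.16), as were 15 of 33 factors of complexes II to V (1 lower, median 0.24, led by the copper chaperone Cox17, 0.70 ± 0.22) and 3 of 8 other electron carriers (median 0.23), among them cytochrome c, Cycs (0.32 ± 0.14). The citric acid cycle, which feeds the chain, had 3 of 18 enzymes higher and 9 of 18 positive (median -0.01). Regulators of mitochondrial biogenesis had 0 of 20 higher and 1 lower, the transcription factor gene Nrf1 (-0.20 ± 0.10, 12.1 ± 1.52 against 14.0 ± 1.51 CPM), with 5 of 20 positive (median -0.04). Import and protein quality genes had 2 higher and 1 lower of 21 (median 0.11). In male Pb+Mn against Pb the same lists had 8 of 13 mitochondrially encoded subunits lower (median -0.43), 41 of 44 ribosomal proteins lower (-0.53), 11 of 18 and 18 of 33 assembly factors lower (-0.38 and -0.44), 7 of 18 cycle enzymes lower (-0.07), and 4 higher and 2 lower of 20 biogenesis regulators (0.10), among them Pprc1 (0.39 ± 0.14) and Nrf1 (0.24 ± 0.10).

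Markers of other cells moved in the same libraries. The summed CPM of the 6 blood genes ran from 235 to 715 in male Pb (median 365, with the 715 in male Pb 6) and from 136 to 244 in male controls (median 177). Of the 5 blood genes tested, 3 were higher at an unadjusted p under 0.05, where 8.28% of all genes were. In female Pb the blood sum ran from 120 to 644, with the 644 in female Pb 2, and in male Pb+Mn from 229 to 831 (median 301). Female Pb 2 was also the lowest of its group for dentate granule (292 CPM), CA1 (350 CPM), CA3 and CA2 (386 CPM) and general neuron markers (12850 CPM). The same held for interneuron, microglia, endothelial and thalamus markers. It was the highest of its group for oligodendrocyte (13220 CPM) and choroid plexus markers (1967 CPM). The 6 dentate granule markers summed to 311 to 475 CPM in male Pb (median 325) and 314 to 647 CPM in male controls (median 509), with 3 of 6 lower, and 3 of 5 meningeal markers were lower. The share of all genes that were lower is not reported here, so these 2 counts have no background beside them. Choroid plexus markers ran from 189 to 6617 CPM in male Pb and from 46.7 to 4454 CPM in male controls. Male Pb 6 had 547 CPM of them, below its group's median of 1544 CPM. None of these lists had a gene at 0 in all libraries, and their part in the members' values was not tested.

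In females the Pb difference rested on 1 library. Of 82 members 71 were positive against control (median 0.21 against 0.01 over all genes), 1 was higher at an unadjusted p under 0.05 (0.941% of all genes) and the smallest adjusted p was 1. Without female Pb 2, 6 members were positive and the median was -0.10. Ndufb8 had the smallest p (0.56 ± 0.27), with 13.3 to 72.7 CPM in female Pb (median 19.2) and 16.5 to 26 CPM in female controls (median 17.6), and 0.01 without female Pb 2. Cox7b had 78.2 to 744 CPM in female Pb (median 154) and 88.5 to 230 CPM in controls (median 136), where the second highest Pb library (190 CPM) lay within the control range. The epsilon subunit Atp5e (0.67 ± 0.35), Atp5h (0.35 ± 0.18), Uqcrh (0.51 ± 0.29) and Cox7a2 (0.43 ± 0.25) had values of the same kind, and each was negative without female Pb 2 (-0.21, -0.01, -0.10 and -0.08). Against female Pb, female Pb+Mn had 76 of 82 members negative (median -0.30) and 10 lower at an unadjusted p under 0.05 (1.76% of all genes), led by Ndufb3 (-0.45 ± 0.20, edgeR adjusted p = 0.95), Atp5e (-0.76 ± 0.35) and Ndufb5 (-0.36 ± 0.17). Without female Pb 2 the median was 0.00 and 0 were left.

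Whether Pb acted differently on the members in the sexes depended on the same 2 libraries. The sex by Pb interaction (female minus male) had a median of -0.24 over the members with all libraries, 76 of 82 negative, 0 at an unadjusted p under 0.05 (1.3% of all genes lower) and 0 called by edgeR, DESeq2 or either limma fit. Without female Pb 2 the median was -0.58 and 60 members were lower at an unadjusted p under 0.05 (8.5% of all genes), without male Pb 6 it was 0.01 with 0 at that threshold, and without both it was -0.31 with 20 lower (3.74% of all genes). The smallest adjusted p in these fits was 0.34, 1 and 0.76, and no difference between the sexes was shown.

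Mn alone left the members close to control. In males the median log2 fold change was 0.00, with 42 of 82 positive, 1 member at an unadjusted p under 0.05 (2.25% of all genes) and 0 called. That member was Cox6a2 (-1.0 ± 0.49, adjusted p = 1), read at 0.244 to 3.13 CPM in male Mn (median 1.21) and 0.165 to 5.21 CPM in male controls (median 1.62). The next by p were Ndufa10 (-0.11 ± 0.08), Atp5a1 (-0.11 ± 0.09), Sdha (-0.06 ± 0.07) and Atp5b (-0.08 ± 0.08), all long transcripts, and Ndufb8 (0.23 ± 0.27) and Cox6c (0.17 ± 0.25) had wider errors. In females the median was 0.02, with 54 of 82 positive and 0 at an unadjusted p under 0.05 (2.62% of all genes). Ndufa10 had the smallest p there too (-0.10 ± 0.08), followed by the low isoforms Cox6b2 (0.33 ± 0.35) and Cox4i2 (-0.23 ± 0.25). The 2 values of Ndufa10 come from separate animals, controls included. As single libraries were left out, the medians took either sign, from -0.03 to 0.08 in males and from -0.04 to 0.13 in females.

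Pb+Mn against control gave small negative values for most members in both sexes. In males 75 of 82 members were negative (median -0.12) and 1 reached an unadjusted p under 0.05 (2.93% of all genes), Cox6a2 (-1.04 ± 0.47). It was followed by Uqcrfs1, with 97.1 to 108 CPM in Pb+Mn (median 102) and 97.6 to 135 CPM in controls (median 115), at -0.18 ± 0.09, and by Atp5s (-0.22 ± 0.12), Ndufs3 (-0.21 ± 0.12) and Atp5f1 (-0.28 ± 0.18). In females 75 of 82 were negative as well (median -0.08) and 0 reached an unadjusted p under 0.05 (1.64% of all genes). Cox6b2 (0.53 ± 0.34) and Ndufc2 (-0.26 ± 0.19) had the smallest p. Female control 1 had a members' mean far above those of the other female controls (0.39, next -0.04). Without that library Ndufa2 (0.01) and Uqcrc1 (0.02), among the 10 members of smallest p here, turned positive. The members' median without it is not reported here. The mitochondrially encoded subunits did not share the sign in males, where 13 of 13 were positive (median 0.09), and in females 5 of 13 were. With the length trend as covariate the members' medians were -0.01 in males and 0.03 in females. Against Mn alone, the members' medians were -0.11 in males, with 1 lower at an unadjusted p under 0.05 (4.03% of all genes in either direction), Atp5s (-0.27 ± 0.12), and -0.11 in females, with 0 (2.55%). None of these passed edgeR's adjusted threshold, where the smallest adjusted p was 0.94. Female and male controls differed by a median of -0.03 over the members, with 1 member, Cox6a2, at an unadjusted p under 0.05 (1.31% of all genes), at -1.02 ± 0.50 (edgeR adjusted p = 1). The Cox6a2 values of male Mn, male Pb+Mn and female controls all rest on the same male controls (2.43 ± 2.12 CPM), so they are not independent. Male control 5 had the highest Cox6a2 level of all 48 libraries (5.21 CPM).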

How the data were processed

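RNA-seq of the hippocampus was analysed in 48 libraries, 6 for each sex and exposure. The table holds raw counts of reads per gene, as deposited by the authors. Per the submitters' processing notes, reads were trimmed with Trim Galore 0.6.9, aligned with STAR 2.7.10b to GRCm39 and counted with featureCounts 2.0.6, and the notes also name edgeR, limma and R 4.4.2. Per the labels' protocols, the kit was stranded and selected mRNA. The strand setting of the counting and its handling of reads that map to several genes are not given in the sources used here.

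Gene symbols came from GENCODE M21 (51884 of 57126 identifiers, 99.5% of counts), in which the ATP synthase inhibitor has a symbol outside the rule for members. Transcript length is the median over a gene's coding transcripts. Genes were tested with edgeR 4.0.16 in R 4.3.3 (TMM scaling, filterByExpr, quasi-likelihood fit and two-sided F test, all libraries in 1 fit), with Benjamini-Hochberg adjustment over 16360 genes and a threshold of 0.05. All p-values in the text, unadjusted ones included, come from this test unless DESeq2 1.42.0 or limma 3.58.1 is named. Standard errors are those of the log2 fold change, taken as the fold change over the root of F. CPM per library used TMM-scaled totals and log2 CPM a prior count of 2. Total counts of 6.27 M to 27.6 M limit the precision of the isoforms under 3 CPM most. The members and gene lists were chosen with earlier results of these data known. Genes named with values are the 10 of smallest p in each comparison with control and in Pb+Mn against Pb, those of highest and lowest level in a complex, core subunits, isoform pairs, and the 3 of smallest p in a list. Others were named after their values were seen. Some genes under this rule are not reported here. The alternatives were other scaling, tests, filters, membership rules, covariates, a replicate block and leaving out each library. The edgeR procedure was tested on simulated counts for male Pb against male control. Genes were drawn independently there, whereas the members vary together, so the simulation does not bear on the counts of members. No pair of libraries of a group agreed within sampling noise (lowest chi-square per degree of freedom 8.90).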

Additional observations from a re-analysis of the deposited data

Results flagged for a closer look

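In groups of 6, a highest or lowest library was singled out where its gap to the nearest library exceeded Dixon's 95% limit relative to the group's range. Of 168 values examined (15 members and the means of the members and complexes), 42 met this, in 6 libraries. The 15 members are those of smallest p in the 2 comparisons of male Pb, against control and against Pb+Mn, so they were chosen with values that male Pb 6 carries. The share of about 1 in 20 groups that chance gives does not apply to them, and members that vary together are not independent.

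Male Pb 6 was singled out for 12 members. It had 1252 CPM of Cox7b (next library 530.3), 1567 of Cox4i1 (793), 760.7 of Cox6c (303.8), 497.6 of Cox7a2 (230), 277.3 of Atp5mpl (108.6) and 254.9 of Atp5o (126.1). In complexes I and II it had 250.1 CPM of Ndufb1-ps (95.4), 169.9 of Ndufs6 (84.5), 81.83 of Ndufb8 (36.29), 180 of Ndufb5 (106.6), 156.9 of Ndufc2 (87.57) and 228.3 of Sdhc (150.9). All 12 were high values.

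Female Pb 2 was singled out for 14 members and for the means of centred log2 CPM over all members (1.054, next 0.1469), complex III (1.104, next 0.1644) and complex V (0.9601, next 0.1069). In complex IV it had 1580 CPM of Cox4i1 (604.3), 842.2 of Cox8a (451.7), 753 of Cox6a1 (425.9), 743.8 of Cox7b (190.2), 544.5 of Cox6c (242.4), 451.9 of Cox7a2 (171.7) and 4.823 of Cox7a1 (1.883). In complexes I and V it had 228.1 CPM of Ndufb1-ps (77.38), 163.3 of Ndufb5 (86.55), 132.6 of Ndufs6 (62.56), 115.3 of Ndufc2 (62.6), 72.72 of Ndufb8 (28.17), 227.3 of Atp5mpl (94.98) and 217.8 of Atp5o (97.44). These were high values too.

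Female control 1 had means of 0.3922 over all members (next -0.041), 0.4386 for complex I (-0.0247), 0.4264 for complex III (-0.0169) and 0.3296 for complex IV (-0.1787), and 814.2 CPM of Cox4i1 (490.6), 617.6 of Cox8a (406.5), 611.9 of Cox6a1 (356.8), 97.99 of Ndufb5 (73.69) and 25.96 of Ndufb8 (18.7). Male Pb+Mn 2 had 598.8 CPM of Cox4i1 (471.9) and 427.2 of Cox6a1 (355). Atp5mpl stood apart in male Mn 2 (94.62 CPM, next 72.55) and female Pb+Mn 3 (78.76 CPM, next 65.38).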

How the results depend on the processing

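With the length trend as covariate the members' median log2 fold change was 0.0718 in male Pb against control and -0.0664 in male Pb+Mn against Pb. In the latter, members called numbered 15 with DESeq2, 27 with limma voom with library weights and 0 to 61 as single libraries were left out. In the other 15 comparisons 0 members were called under every alternative, DESeq2 and both limma fits included. In male Pb against control, however, DESeq2 gave most members no adjusted p, Ndufb8 and Atp5mpl among them. Those members could not be called by it, and the smallest DESeq2 adjusted p among the rest was 0.092 (Cox6c, Cox8a and Cox7b). Leaving out single libraries gave medians of 0.2158 to 0.5548 in male Pb, -0.6824 to -0.3389 in male Pb+Mn against Pb, -0.1 to 0.3219 in female Pb and -0.41 to -0.0032 in female Pb+Mn against Pb. The unadjusted count of 10 members in that last comparison (3.83% of all genes in either direction) was 19 with DESeq2 (4.22%), 21 without a filter (3.29%), 2 with the covariate (3.77%), 0 with limma voom (2.94%), 0 with weights (5.72%) and 0 with only the groups compared (3.35%). That of 0 for sex by Pb (2.07%) was 24 with library weights (10.5%). Causes were not tested.

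In female Pb against control, single values turned negative with library weights for Atp5e (-0.0969), Ndufb1-ps (-0.1248) and Ndufa4 (-0.0539). As libraries were left out, Atp5e ran from -0.2148 to 0.8504, Atp5h from -0.0074 to 0.491, Uqcrh from -0.1013 to 0.69, Cox7b from -0.0438 to 0.9197, Atp5mpl from -0.0547 to 0.6067, Cox7a2 from -0.0781 to 0.5636, Ndufb1-ps from -0.1377 to 0.6766, Ndufa7 from -0.0751 to 0.6505 and Ndufa4 from -0.107 to 0.5816, each negative without female Pb 2. In female Pb+Mn against Pb, Atp5e was 0.1294 with weights, 0.0326 with the covariate and -0.9422 to 0.1197 over left-out libraries, and Ndufb1-ps 0.0437 with weights and -0.8006 to 0.0144. Without female control 1, Ndufc2 in female Mn (-0.1927 to 0.0218) and Ndufa2 (-0.2741 to 0.0097) and Uqcrc1 (-0.1723 to 0.0185) in female Pb+Mn against control turned positive.

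The labels do not say that a replicate number marks a shared litter or day, so the numbers were not taken as pairs. Same-numbered libraries of different groups correlated at a median of 0.0283 (168 pairs, -0.3788 to 0.4928), others at -0.007, and 22 of 48 correlated best with their own number, a hint from the data and not from the design. With a replicate block 0 members were called in all 16 comparisons, the medians were 0.4408 in male Pb, -0.5677 in male Pb+Mn against Pb and 0.1783 in female Pb, and the unadjusted count in female Pb+Mn against Pb was 1 (3.6% of all genes) in place of 10.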
